A study of Mus musculus with 15 samples.

Results

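Apoe, the gene deleted in this study, and 8 genes that lie beside it on mouse chromosome 7 (Apoc1, Apoc2, Apoc4, Tomm40, Nectin2, Bcam, Clptm1 and Relb) were followed through sorted retinal microglia. The 9 genes were chosen by name and position, out of 35519 genes with assigned reads, and 6 of them passed the filter on low counts that left 6521 genes for testing. All mice were C57BL/6 and 12 weeks old. The 4 groups were wild-type retinas after a sham injection (n = 4), wild-type retinas after a microbead injection (n = 3), Apoe-/- retinas after a sham injection (n = 4) and Apoe-/- retinas after a microbead injection (n = 4). Microbeads lodged at the outflow of the eye raise its pressure, which serves as a model of glaucoma. Microglia, the resident macrophages of the retina, were sorted by the surface proteins Fcrls and CD11b, leaving out cells with Ly6c, and their RNA was sequenced as 1 bulk library per retina. The labels name the retinas by number within a group and do not say whether they came from separate mice, so p-values measure only the spread between these samples. In bulk RNA, fewer cells of a type and less RNA per cell cannot be told apart.

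Apolipoprotein E is a secreted protein that binds lipids, carries cholesterol between cells and is taken up through receptors at the cell surface. In the nervous system it is made mainly by astrocytes and, in the retina, Müller glia, and microglia make more of it when they leave their resting state and take up debris. Its gene sits in a cluster of small apolipoprotein genes, and the liver X receptors (LXR), which sense oxidised cholesterol, switch on several genes of the cluster together in macrophages.

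All 9 genes are protein coding and lie on the minus strand of chromosome 7 (mm10), so that they are read towards lower coordinates. Apoe occupies 19696109 to 19699188. Downstream of it lie Apoc1 (19689481 to 19692660), Apoc4 (19678083 to 19681479), Apoc2 (19671579 to 19677941), Clptm1 (19631571 to 19665033) and Relb (19606217 to 19629438). Upstream lie Tomm40 (19701313 to 19715438), Nectin2 (19716644 to 19750483) and Bcam (19756131 to 19771016). The nearest neighbour is Tomm40, whose end is 2124 bases from the first base of Apoe, and the farthest is Relb, at 66670 bases from its last base. Antisense or readthrough models overlap Tomm40, Nectin2, Bcam and the Apoc4 and Apoc2 pair in the annotation. Whether reads were counted by strand is not given in the sources used here, so reads of these genes and of the overlapping models may be mixed.

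The 250 bases before the start are shown for the gene that responded to microbeads, for its nearest neighbour and for the neighbour with the smallest genotype p. They are RefSeq sequences on GRCm38.p6, 5′ to 3′ on the minus strand, and 7 of the 9 genes had an entry. Capitals mark matches on either strand to a TATA box (TATAAA), a GC box (GGGCGG) or a CCAAT box (CCAAT), where matches may overlap. The window chr7:19699189-19699438 lies before the first annotated base of Apoe, labelled main start below. A second Apoe start inside its first intron has chr7:19698622-19698871. The others are chr7:19715430-19715679 for Tomm40 and chr7:19665031-19665280 for Clptm1.
Apoe, main start: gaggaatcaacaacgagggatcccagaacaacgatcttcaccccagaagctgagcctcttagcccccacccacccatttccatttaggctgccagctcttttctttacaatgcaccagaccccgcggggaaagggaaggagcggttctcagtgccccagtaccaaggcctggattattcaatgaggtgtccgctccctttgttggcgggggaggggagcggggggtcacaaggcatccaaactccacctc
Apoe, second start: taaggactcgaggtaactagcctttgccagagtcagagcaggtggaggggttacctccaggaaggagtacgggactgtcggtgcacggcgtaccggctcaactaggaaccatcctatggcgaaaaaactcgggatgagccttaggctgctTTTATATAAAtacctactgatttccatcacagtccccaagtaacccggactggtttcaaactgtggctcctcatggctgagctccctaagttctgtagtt
Tomm40: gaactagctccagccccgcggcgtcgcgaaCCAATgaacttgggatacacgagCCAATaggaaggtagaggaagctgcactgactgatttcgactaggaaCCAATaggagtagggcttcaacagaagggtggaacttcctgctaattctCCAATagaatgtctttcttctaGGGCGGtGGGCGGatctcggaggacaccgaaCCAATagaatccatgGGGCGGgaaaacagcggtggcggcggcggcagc
Clptm1: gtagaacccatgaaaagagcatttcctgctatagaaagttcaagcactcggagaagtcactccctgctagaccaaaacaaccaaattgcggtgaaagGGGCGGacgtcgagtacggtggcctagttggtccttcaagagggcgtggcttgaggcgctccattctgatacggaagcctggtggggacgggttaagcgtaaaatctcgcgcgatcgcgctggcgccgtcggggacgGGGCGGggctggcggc
The window of the main Apoe start held none of these letters. It lies directly before the transcript model Apoe-206. Apoe-209, the model with most wild-type Apoe reads, starts further downstream at 19699008, and Apoe-201 and Apoe-202 start at 19699052. The bases directly before those starts lie outside the windows and were not searched. That of the second start held 2 overlapping TATA matches, printed as a single run of capitals. One more Apoe window, chr7:19698399-19698648, is not printed and held none of these letters. Tomm40 had 3 GC boxes and 5 CCAAT boxes, and Clptm1 had 2 GC boxes. Of 32851 RefSeq windows of the same length, 12.4% held the TATA letters, 32.7% the GC box and 33.8% the CCAAT letters. Nectin2 had 2 GC boxes, Apoc4 a single GC box and a single CCAAT box, and the windows of Apoc2 and Bcam none of these letters.

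Libraries held 458111 to 714670 reads assigned to genes, of which 40.8 to 74.4% belonged to 12 models of the major satellite, a centromere repeat. TMM-scaled library sizes, which set the CPM values used here (reads scaled to a common library size), ran from 464979 to 1000258 in wild type and from 225227 to 642804 in Apoe-/-, and the scaling therefore moves with genotype. The 12 microglia markers checked all had reads in every group, with a summed level of 10855 to 14482 CPM in wild-type and 7317 to 14611 CPM in Apoe-/- libraries. Among them P2ry12 was at 702 ± 66.7 CPM (SD, n = 4) and Cx3cr1 1888 ± 143 CPM in wild-type sham retinas, and Fcrls was present in all 15 libraries. The names of the deposited tables carry a code whose letter follows genotype. The number in that code follows injection, and is lower in every microbead library than in every sham library. What the letter and the number stand for is not given in the sources used here. An effect that goes with the letter cannot be told apart from one of genotype. Likewise, an effect that goes with the number cannot be told apart from one of injection.

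Apoe was one of the most abundant messages of wild-type microglia, became the most abundant or nearly so with microbeads, and was all but missing in Apoe-/- libraries. In wild-type sham libraries 1 to 4 its level was 1520, 1407, 1469 and 1434 CPM, and in wild-type microbead libraries 1 to 3 it was 5640, 15121 and 9770 CPM. Every microbead library lay above every sham library, as was the case for 6.32% of all genes, and the sham libraries lay close together while the microbead libraries spread over a wide range. In Apoe-/- sham libraries the level was 0, 4.44, 1.74 and 15.7 CPM and in Apoe-/- microbead libraries 10.4, 8.19, 5.83 and 4.67 CPM. These values rest on 0 to 6 reads per library, 22 reads in 8 libraries against 30042 in the 7 wild-type libraries.

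**Figure D1:**
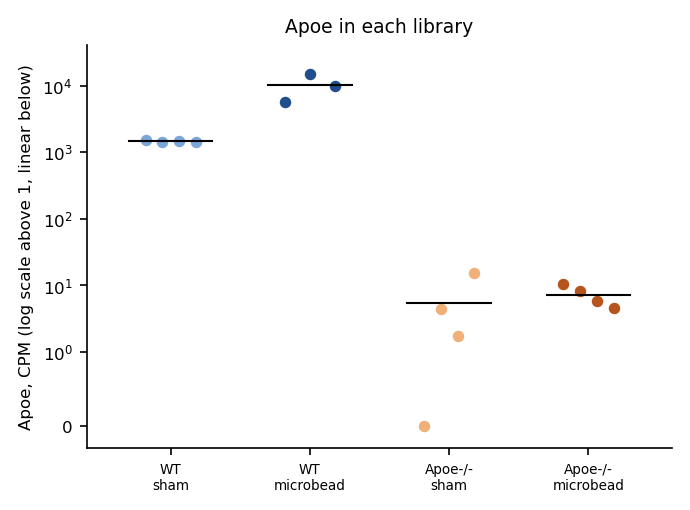
Apoe level in each of 15 libraries, as CPM on an axis that is logarithmic above 1 and linear below, by group; points are libraries and lines are group means. Wild-type sham libraries sit at 1407 to 1520, wild-type microbead libraries at 5640 to 15121, and Apoe-/- libraries at 0 to 15.7.

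Ranked by TPM, the authors' length-corrected unit, Apoe was between the 9th and the 14th gene of each wild-type sham library, where cystatin C (Cst3) was the 1st. With microbeads it was the 2nd gene of wild-type library 1 and the 1st of libraries 2 and 3. It took 0.352 to 0.399% of the reads outside the satellite models in sham libraries, and 1.47%, 3.61% and 2.47% in microbead libraries 1, 2 and 3. Its TPM averaged 452 ± 90.9 (SD, n = 4) and 5545 ± 3171 (SD, n = 3) in these groups. In Apoe-/- libraries it averaged 1.77 ± 2.77 TPM in sham and 2.20 ± 0.63 TPM in microbead retinas (SD, n = 4 each).

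The level of the deleted gene matched the genotype label in all 15 libraries. By edgeR's quasi-likelihood test, with p-values adjusted by Benjamini-Hochberg over all 6521 genes, Apoe was 273 times lower in Apoe-/- than in wild-type sham retinas (log2 fold change -8.09, SE 0.57). Without Apoe-/- sham library 4 the log2 fold change was -9.61. With microbeads it was 1395 times lower (log2 fold change -10.45, SE 0.59). A gene is called here when its adjusted p is under 0.05, and the share of all genes called was 0.0153% in the sham genotype comparison and 0.046% in the microbead one.

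In wild type the microbead libraries held 6.98 times as much Apoe as the sham libraries, with a 95% interval of 1.95 to 3.66 around a log2 fold change of 2.80, in a comparison where 0.199% of genes were called. The adjusted p of 0.0045 rose to 0.0526 without wild-type microbead library 2 (log2 fold change 2.40) and to 0.0519 without wild-type sham library 1 (2.82), so either library decides whether the rise passes the threshold. Apoe-/- libraries gave a log2 fold change of 0.45 (SE 0.69), resting on 8 sham and 14 microbead reads. The difference between those responses was -2.35 (SE 0.86), with an unadjusted p of 0.013 and an adjusted p of 1.00, so the difference itself was not called. Without Apoe-/- sham library 4, which holds 6 of the 8 sham reads, it was -0.84. Because the gene is deleted in Apoe-/-, this difference sets the wild-type rise against those few reads, and no conclusion is drawn from it.

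Other cells of the retina make Apoe, and the markers of Müller glia and astrocytes were checked as its other likely source. The summed level of 12 such genes was 133 to 174 CPM in wild-type sham, 129 to 167 in wild-type microbead, 128 to 208.7 in Apoe-/- sham and 104 to 176 CPM in Apoe-/- microbead libraries. In the wild-type microbead libraries, where Apoe was highest, 9 of the 12 had reads and Sox9, Aqp4 and Rlbp1, a defining Müller gene, were at 0. Glul, the glutamine synthetase of Müller glia, averaged 97.4 ± 28.2 CPM (SD, n = 4) in wild-type sham and 91.3 ± 8.64 CPM (SD, n = 3) in wild-type microbead libraries. Of 12 border macrophage and monocyte markers, 8 had reads in wild-type sham and 10 in wild-type microbead libraries, with summed levels of 43.0 to 74.4 and 42.0 to 86.0 CPM and S100a9 at 0 in both. Rod markers, which all had reads in all groups, summed to 557 to 2536 CPM in wild-type sham and 96.0 to 642 CPM in wild-type microbead libraries. Pigment epithelium and endothelium markers summed to 39.5 to 49.5 and 24.0 to 42.0 CPM.

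Most Apoe reads of wild-type libraries were assigned to a single transcript model. The annotation lists 11 Apoe models that share most of their exons and differ at their first exon, at retained intron stretches and at their ends. Apoe-209, a protein-coding model of 1104 bases with 4 exons, held 85.5, 82.6, 79.3 and 86.2% of the Apoe reads in wild-type sham libraries 1 to 4. In wild-type microbead libraries 1 to 3 it held 85.8, 74.8 and 73.8%. Microbead libraries 2 and 3 thus lay below every sham library and library 1 lay among them. The share averaged 83.4 ± 3.13% (SD, n = 4) and 78.2 ± 6.64% (SD, n = 3), a difference of -5.25 percentage points (exact permutation test, two-sided, p = 0.229), where 35 arrangements allow 0.0286 at the smallest. No change of transcript use was therefore shown beside the rise of the gene.

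What sets Apoe-209 apart from the other models is a stretch of 37 bases, 19698972 to 19699008, that belongs to its first exon and to no other model. The standard model Apoe-201 starts further upstream and has no base of its own, so that the split between the models rests on short stretches. Over the 7 wild-type libraries Apoe-209 took 77.0% of 30042 Apoe reads, the processed transcript Apoe-202 9.22%, Apoe-201 7.24% and Apoe-206, which begins at the first annotated base of the gene, 6.25%. Apoe-201 had reads in 3 of the 7 libraries, wild-type sham 3 and wild-type microbead 2 and 3, at 7.93, 9.28 and 9.22% of the Apoe reads, and 0 in the other 4. Apoe-202 had reads in all 7 libraries, at 7.92 to 11.5%, and so had Apoe-206, at 2.10 to 7.59%. The 3 microbead values of Apoe-206 (6.05, 6.22 and 7.59%) all lay above the 4 sham values (2.10 to 5.11%), a pattern picked out after its values were seen and not tested.

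The few Apoe reads of Apoe-/- libraries fell on 4 models, of which Apoe-202 held 9.22% and the others together 0.204% of the wild-type Apoe reads. Each of the 7 Apoe-/- libraries with Apoe reads had all of them on 1 model. Apoe-202 took the 6 reads of sham library 4 and the 3 of microbead library 4. Apoe-205 took the 1 read of sham library 3 and the 5 and 3 reads of microbead libraries 1 and 3. Apoe-207 took the 3 reads of microbead library 2 and Apoe-211 the 1 read of sham library 2. Apoe-209, Apoe-201 and Apoe-206, which held most wild-type reads, had 0 reads in Apoe-/-.

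Apoe-205, Apoe-207 and Apoe-211 each include a stretch that is intron in Apoe-209. These stretches, which no other Apoe model holds, are 19698273 to 19698403 and 19698524 to 19698621 in the first intron, for Apoe-205 and Apoe-207, and 19697104 to 19697239 in the third intron, for Apoe-211. Apoe-207 starts at the base that follows the window of the second start shown above, and the window chr7:19698399-19698648 ends within the stretch of Apoe-205. These models were grouped after their reads were seen, and the difference was not tested. They held 13 of 22 Apoe reads in Apoe-/- (59.1%) and 61 of 30042 in wild type (0.204%). These shares rest on counts of reads, molecules were not tagged, and the 22 reads come from 7 libraries. The files give reads per model and not their positions, so which part of the deleted gene they cover is not known here.

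**Figure D2:**
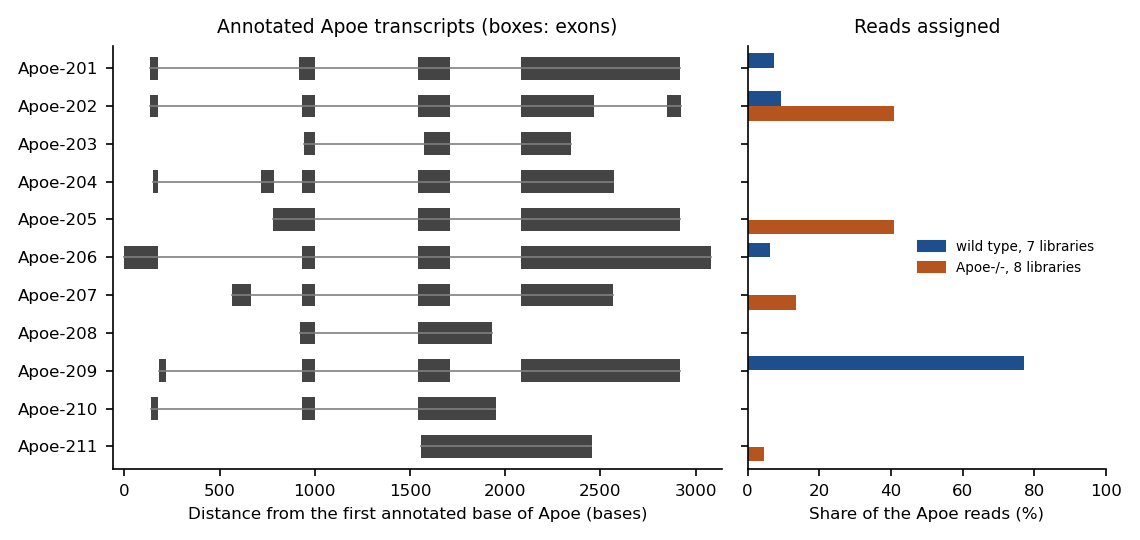
Left, the 11 annotated Apoe transcript models drawn by distance in bases from the first annotated base, read left to right, with exons as boxes and introns as lines; right, the share in percent of all Apoe reads assigned to each model in 7 wild-type and 8 Apoe-/- libraries. Apoe-209 held 77.0% in wild type, while in Apoe-/- the 22 reads fell on Apoe-202, Apoe-205, Apoe-207 and Apoe-211.

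Genes with the same course as Apoe across the wild-type libraries were sought among the other 6520 tested genes. Likeness was the root mean square difference in log2 CPM after centring each gene on its own mean over the 7 wild-type libraries, with a median of 1.43 over all genes. The 5 closest were Lyz2, a lysozyme of phagocytes (0.34), the class II antigen presentation gene H2-Aa (0.44), the fatty acid carrier gene Fabp5 (0.44), Hcar2, a receptor for hydroxybutyrate (0.44), and the class II gene H2-Ab1 (0.45). Lyz2 was at 156 to 261 CPM in the sham libraries and at 933, 2332 and 874 CPM in microbead libraries 1, 2 and 3. H2-Aa was at 38.7 to 64.6 CPM and at 117, 396 and 175 CPM. In Apoe, Lyz2, H2-Aa, H2-Ab1 and Fabp5 microbead library 2 was the highest of all 7, and in Hcar2 it was microbead library 3. The 5 tested neighbours were farther away: Relb ranked 1319 of 6520 (1.26), Clptm1 1747 (1.30), Nectin2 3284 (1.44), Apoc4 4897 (1.60) and Tomm40 5788 (1.76).

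The genes beside Apoe were present at far lower levels than Apoe in wild type. In wild-type sham retinas the TPM averaged 5.30 for Tomm40, 3.88 for Relb, 3.39 for Clptm1, 2.38 for Nectin2, 2.11 for Apoc4, 0.46 for Apoc1, 0.44 for Apoc2 and 0 for Bcam. Each of these overlapped the next in its range over libraries, and Apoe alone stood apart from the gene below it. With microbeads the order in wild type was Relb (8.62), Apoc1 (6.98), Tomm40 (5.04), Clptm1 (4.95), Nectin2 (4.11), Apoc4 (3.84), Apoc2 (2.50) and Bcam (0), and again neighbours in the order overlapped, except Apoc2 and Bcam. In Apoe-/- microbead libraries Apoc4 led at 5.03 TPM and Clptm1 was at 1.13. The values that follow are CPM, which compare libraries and not genes.

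The small apolipoprotein genes Apoc1 and Apoc2 were close to undetected. Apoc1, a small protein of lipoproteins that inhibits their clearance, had 0, 0, 1 and 0 reads in wild-type sham and 1, 9 and 1 in wild-type microbead libraries. In Apoe-/- sham libraries it had 0, 0, 0 and 1 reads and in Apoe-/- microbead libraries 0, 8, 0 and 2. The reads thus lay mostly in 1 library of each microbead group, wild-type 2 and Apoe-/- 2. Apoc2, the activator of lipoprotein lipase, had 1, 0, 1 and 0 reads, then 1, 5 and 1, and in Apoe-/- a single read, in microbead library 1. Both failed the filter on low counts and were not tested. A library with 0 reads allows a level of up to 3 reads, which is 3.00 to 13.3 CPM depending on the library, so that levels of this size were not detectable as different.

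Bcam, a laminin receptor of red cells, epithelium and vessels, also failed the filter. It had 0 reads in all 7 wild-type and all 4 Apoe-/- microbead libraries and 1, 3, 0 and 2 reads in the Apoe-/- sham libraries. Those reads correspond to 2.38, 13.3 and 5.22 CPM, the highest in the library with the smallest scaled size, and lie at or under the 3-read limit.

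The 5 tested neighbours showed no called difference between genotypes by edgeR or DESeq2. In sham retinas 0 of 5 were called by edgeR, where 0.0153% of all genes were called, and 1 had an unadjusted p under 0.05, where 8.68% of all genes had. In microbead retinas 0 of 5 were called, where 0.046% of all genes were called, with 2 at an unadjusted p under 0.05 against 7.19% of all genes. Averaged over both injections 0 of 5 were called, where 0.0153% of all genes were called, with 3 at an unadjusted p under 0.05 against 12.8%. In sham and over both, that share is 1 gene, Apoe itself, so edgeR called no other gene in either of these comparisons. DESeq2 called 1, 23 and 142 of 6521 genes in sham, in microbead retinas and over both. Some low genes had no adjusted p by DESeq2, and such a gene counts here as not called. The median log2 fold change of the 5 was -0.54 in sham, -0.20 in microbead retinas and -0.37 over both, beside -0.01, 0.01 and -0.01 over all genes. In these 3 comparisons 3 of 5 were negative and 2 positive.

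**Figure D3:**
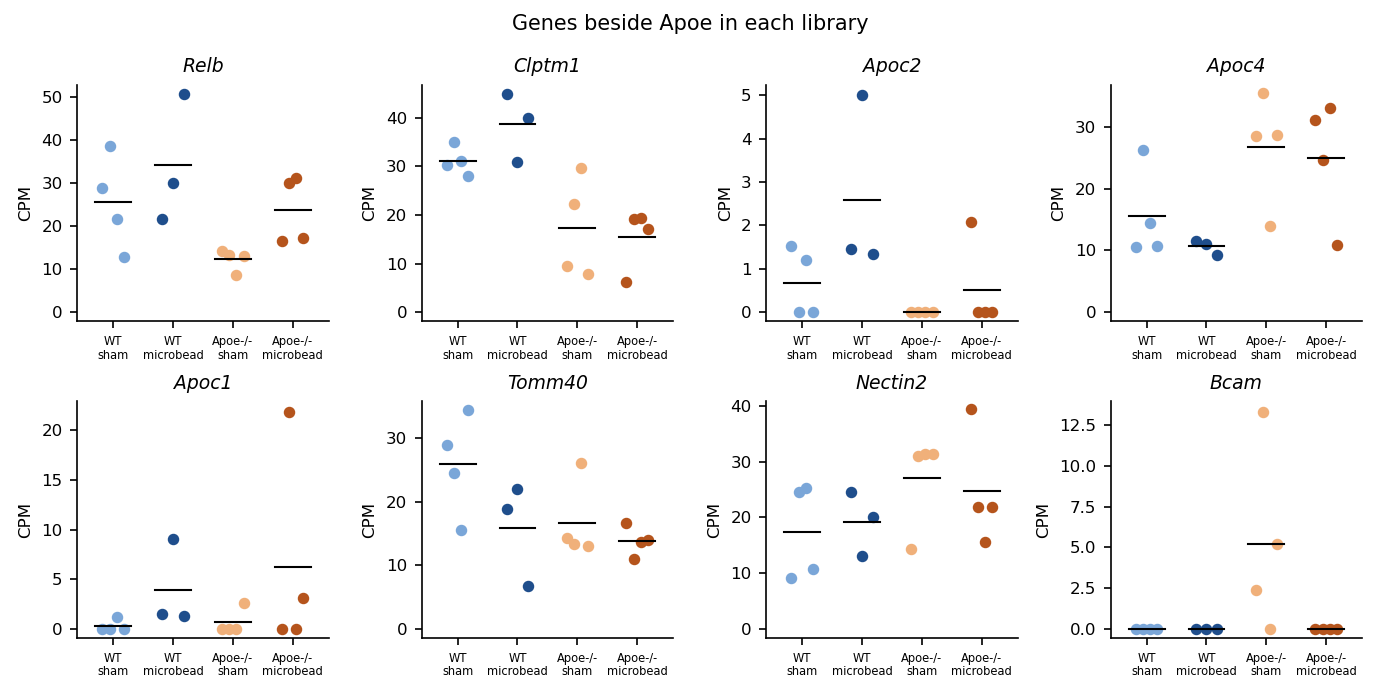
Level in CPM of the 8 neighbouring genes in each of 15 libraries, by group, in their order along the chromosome from Relb to Bcam; points are libraries, lines are group means, and each panel has its own axis. Clptm1 separates 7 of 8 Apoe-/- libraries from all 7 wild-type libraries, while the other panels overlap.

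Clptm1, which encodes a membrane protein that holds back receptor subunits in the endoplasmic reticulum, came closest to a genotype difference. In wild-type sham libraries 1 to 4 it was at 30.4, 34.9, 31.2 and 28.0 CPM, and in wild-type microbead libraries 1 to 3 at 44.9, 31.0 and 40.0 CPM. Apoe-/- sham libraries had 9.52, 22.2, 29.6 and 7.83 CPM, and Apoe-/- microbead libraries 6.21, 19.1, 19.4 and 17.1 CPM. Of 8 Apoe-/- libraries 7 lay below the lowest wild-type library, and the exception was sham library 3. In microbead retinas the groups did not overlap, which was also so for 3.7% of all genes in that direction.

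The log2 fold change of Clptm1 was -0.82 in sham (SE 0.40, 95% interval -1.65 to 0.01, adjusted p = 0.574), or -1.36 without Apoe-/- sham library 3, and -1.30 in microbead retinas (SE 0.40, interval -2.14 to -0.47, adjusted p = 0.482). Over both it was -1.06 (SE 0.28, unadjusted p = 0.00124, adjusted p = 0.167), which missed the threshold by edgeR. The call depended on scaling and filter. Without scaling factors the value was -1.55 (adjusted p = 0.0237), in a fit whose median over all genes stood at -0.50. It was -1.18 (adjusted p = 0.0457) with no filter on low counts, where the median of all genes was 0.11, and -1.28 (adjusted p = 0.0263) by limma on log2(TPM + 1), where the median of all genes was -0.52. Leaving out single libraries moved it between -1.33 and -0.93, and moved the sham value between -1.36 and -0.58. Scaled library size and satellite share differ between the genotypes as given above, and their part in the Clptm1 result was not tested.

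**Figure D4:**
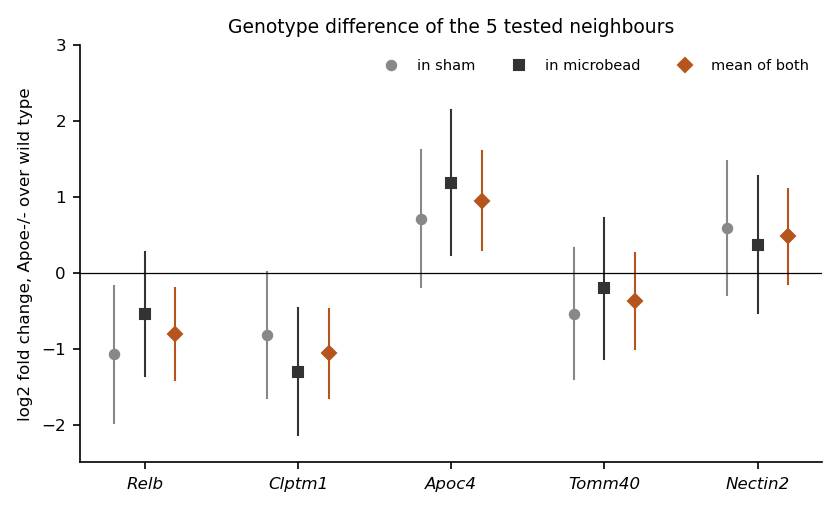
Log2 fold change, Apoe-/- over wild type, of the 5 tested neighbours in sham retinas, in microbead retinas and as the mean of both, with 95% intervals from the edgeR fit. Clptm1 and Relb lie below 0 and Apoc4 above it in the mean of both (-1.06, -0.81 and 0.95), and none was called after adjustment over all genes.

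The Clptm1 reads of wild-type libraries were largely assigned to a model with a retained intron. Clptm1-208, a non-coding model of 3107 bases, is the only model with the stretch 19634224 to 19634664, and it was singled out after its values were seen. That stretch has 441 bases, and the coding model Clptm1-201 has 18 of 4143 bases to itself, so the split between models is uncertain. Clptm1-201 held 22.7 reads in wild-type sham library 3 and 0 in wild-type microbead libraries 1 and 3. It held 16.1, 11.3, 0 and 8.9 reads in the wild-type sham and 23.1, 20.7 and 23.9 reads in the wild-type microbead libraries. In Apoe-/- it held 10.2 and 3.0 reads in sham libraries 3 and 4 and 0 in the other 6 libraries. That is 104 of 171 Clptm1 reads in wild type and 13.2 of 60 in Apoe-/-, over unequal library sizes. Reads on models without a retained intron were 44.3 in wild type and 29.6 in Apoe-/-.

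Retained-intron models together held 74.1% of the Clptm1 reads in wild type and 50.7% in Apoe-/-, while over all genes such models took 3.34 to 6.29% of a library's reads. When they were left out of the gene sums, an alternative chosen after seeing the data, Clptm1 no longer passed the filter on low counts and had no test. Most reads behind the genotype comparison of Clptm1 were thus assigned to retained-intron models, and its other models held too few reads for a test.

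**Figure D5:**
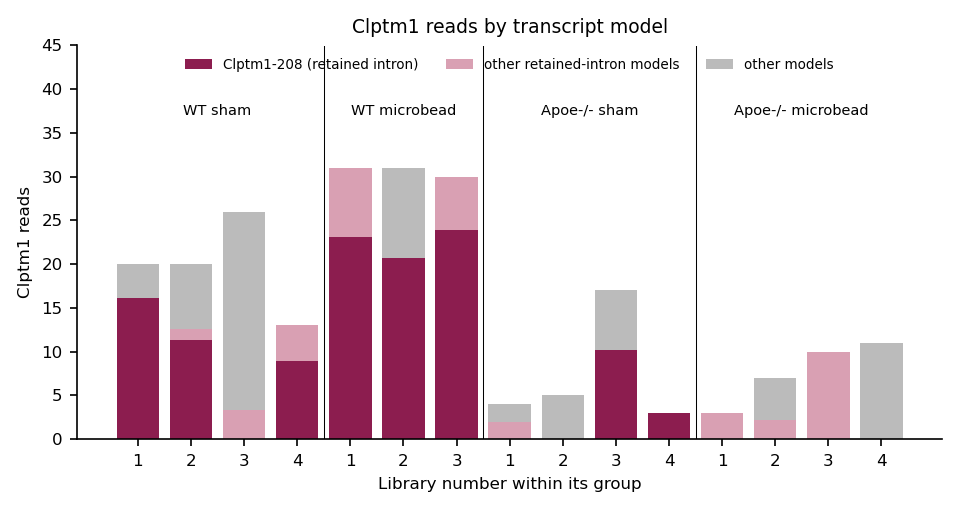
Clptm1 reads in each of 15 libraries as stacked bars, split into the retained-intron model Clptm1-208, other retained-intron models and all other models; vertical lines part the groups. Clptm1-208 had reads in 6 of 7 wild-type and 2 of 8 Apoe-/- libraries.

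Relb, a subunit of NF-kB in the non-canonical pathway, was also lower in Apoe-/- on average, without a call. Its level was 28.9, 38.4, 21.6 and 12.9 CPM in wild-type sham and 21.7, 30.0 and 50.7 CPM in wild-type microbead libraries. In Apoe-/- it was 14.3, 13.3, 8.70 and 13.0 CPM in sham and 16.6, 30.0, 31.1 and 17.1 CPM in microbead libraries. The Apoe-/- sham libraries were low as a group, but wild-type sham library 4 lay among them. The log2 fold change between genotypes was -1.08 in sham (SE 0.43, adjusted p = 0.555), -0.54 in microbead retinas (SE 0.39, adjusted p = 0.792) and -0.81 over both (SE 0.29, adjusted p = 0.233). The last value was called without scaling factors (-1.33, adjusted p = 0.0378) and by limma on log2(TPM + 1) (-1.07, adjusted p = 0.0383), with the shifts of all genes given for Clptm1. Unlike Clptm1, Relb kept its test without retained-intron models, at -0.96 over both.

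Relb was the neighbour with the smallest p for microbeads in Apoe-/- retinas. All 4 microbead libraries (16.6 to 31.1 CPM) lay above all 4 sham libraries (8.70 to 14.3 CPM), as did 1.55% of all genes. The log2 fold change was 0.94 (SE 0.44, 95% interval 0.02 to 1.87, unadjusted p = 0.0466, adjusted p = 0.70). In wild type it was 0.41 (SE 0.38, adjusted p = 0.84), and the difference between the responses, 0.53 (SE 0.58), was not called.

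Apoc4, a minor apolipoprotein made mainly in liver, stood on the other side, with higher values in Apoe-/-. It was at 10.6, 26.2, 14.4 and 10.8 CPM in wild-type sham and between 9.34 and 11.6 CPM in the 3 wild-type microbead libraries. Apoe-/- sham libraries had 28.5, 35.5, 13.9 and 28.7 CPM, and Apoe-/- microbead libraries 31.1, 24.6, 33.0 and 10.9 CPM. Of 8 Apoe-/- libraries 5 lay above the highest wild-type library, and both injections overlapped between genotypes. The log2 fold change was 0.72 in sham (SE 0.43, adjusted p = 0.638), 1.19 in microbead retinas (SE 0.46, adjusted p = 0.626) and 0.95 over both (SE 0.31, adjusted p = 0.204), none of them called by edgeR. In reads rather than CPM the libraries were close, 5.20 to 14.7 in wild type and 6.60 to 16.7 in Apoe-/-, beside the smaller scaled sizes of the Apoe-/- libraries, whose part in the CPM difference was not tested.

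As in Clptm1, most reads of Apoc4 were assigned to retained-intron models. Apoc4-202, a single unspliced exon that runs from 19679306 to 19681401, held 93.8% of the Apoc4 reads in wild type and 84.1% in Apoe-/-. The spliced coding model Apoc4-201 held 4.00 reads over 7 wild-type and 13.8 over 8 Apoe-/- libraries. Without retained-intron models Apoc4 failed the filter on low counts. A readthrough model that joins Apoc4 and Apoc2 overlaps this stretch, so that the gene of origin of the reads is uncertain.

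Tomm40, whose product is the channel through which proteins enter mitochondria, is the gene nearest to Apoe and overlapped between all groups. It was at 28.9, 24.5, 15.6 and 34.4 CPM in wild-type sham and 18.8, 22.0 and 6.67 CPM in wild-type microbead libraries. Apoe-/- libraries had 14.3, 13.3, 26.1 and 13.0 CPM in sham and 16.6, 10.9, 13.6 and 14.0 CPM in microbead retinas. The log2 fold change between genotypes was -0.54 in sham (SE 0.41), -0.20 in microbead retinas (SE 0.45) and -0.37 over both (SE 0.30, adjusted p = 0.654). The 95% interval over both ran from -1.01 to 0.26. In wild type, where Apoe rose, Tomm40 had a log2 fold change of -0.66 with microbeads (SE 0.42, interval -1.53 to 0.21, adjusted p = 0.731).

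Nectin2, an adhesion protein of cell junctions, gave values on both sides of 0 under different scalings. Its level was 9.11, 24.5, 25.2 and 10.8 CPM in wild-type sham and 24.6, 13.0 and 20.0 CPM in wild-type microbead libraries. Apoe-/- libraries had 14.3, 31.1, 31.3 and 31.3 CPM in sham and 39.4, 21.9, 15.6 and 21.8 CPM in microbead retinas, and 4 of the 8 lay above the highest wild-type library. The log2 fold change over both injections was 0.48 (SE 0.30, adjusted p = 0.542), and it was -0.02 without scaling factors and -0.11 by limma on log2(TPM + 1). The medians of all genes in these fits were -0.01, -0.50 and -0.52, so Nectin2 lay above the median in each. Its reads were 91.0 in wild type and 92.0 in Apoe-/-.

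With microbeads, 0 of the 5 neighbours were called in either genotype, where 0.199% of genes were called in wild type and 0.0% in Apoe-/-. In wild type 0 of 5, and in Apoe-/- 1 of 5, had an unadjusted p under 0.05, against 7.87 and 6.95% of all genes. The wild-type log2 fold changes ran from -0.66 (Tomm40) to 0.41 (Relb), with a median of 0.09, and those in Apoe-/- from -0.32 (Tomm40) to 0.94 (Relb), with a median of -0.12. The upper ends of the 95% intervals in wild type were 0.44 for Apoc4, 0.21 for Tomm40, 1.01 for Nectin2, 1.06 for Clptm1 and 1.20 for Relb, all below the lower end for Apoe, 1.95. The difference between the responses was called for 0 of 5, with 0 at an unadjusted p under 0.05, beside 0.0% of all genes called and 3.39% at that unadjusted p.

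A wider window of 1 Mb to each side of Apoe held 90 other annotated genes, of which 13 were tested and 0 were called in any of the 3 genotype comparisons by edgeR or DESeq2. The calls over all genes in these comparisons are those given above for the neighbours. The median log2 fold change of the 13 was -0.25 in sham, -0.12 in microbead retinas and -0.18 over both. Beyond the 5 neighbours, Sympk, a scaffold of messenger RNA end processing (19024377 to 19054618), had the smallest p in microbead retinas and over both. It averaged 33.8 ± 2.89 CPM (SD, n = 4) in wild-type sham, 19.9 ± 9.19 (n = 3) in wild-type microbead, 44.0 ± 11.6 (n = 4) in Apoe-/- sham and 40.4 ± 6.53 CPM (n = 4) in Apoe-/- microbead libraries. Its log2 fold change over both injections was 0.70 (SE 0.22, adjusted p = 0.193). Unadjusted, 1, 3 and 4 of the 13 had a p under 0.05 in sham, in microbead and over both, beside the shares of all genes given above.

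The partners of ApoE were looked at as 3 lists: genes of the LXR pathway and lipid efflux, receptors that take ApoE up, and other apolipoproteins and lipid carriers. Of 39 genes 21 were tested, and 0 were called in any of the 6 comparisons by edgeR or DESeq2. Over all 6521 genes, in the order of the next sentence, edgeR called 1, 3, 1, 13, 0 and 0. DESeq2 called 1, 23, 142, 36, 0 and 0. At an unadjusted p under 0.05 there were 2 in sham, 1 in microbead retinas and 3 over both between genotypes, 5 with microbeads in wild type, 2 with microbeads in Apoe-/- and 0 for the difference between the responses, of 21 each. The shares of all genes at that p were 8.68, 7.19, 12.8, 7.87, 6.95 and 3.39% in the same order. In the sham genotype comparison the smallest p belonged to Npc1, which exports cholesterol from lysosomes (67.4 ± 9.86 CPM in wild type and 41.4 ± 16.2 in Apoe-/-, SD, n = 4 each), with a log2 fold change of -0.71 (adjusted p = 0.555). Nr1h2, which encodes LXR beta, followed at -0.81 (adjusted p = 0.573), and then lipoprotein lipase (Lpl), at 0.62 (adjusted p = 0.606). Over both injections Nr1h2 was at -0.72 (SE 0.27, adjusted p = 0.249), Lpl at 0.60 (SE 0.24, adjusted p = 0.286) and Npc1 at -0.50 (SE 0.21, adjusted p = 0.309). In microbead retinas the genotype difference was -1.12 for the lipid droplet gene Plin2 (SE 0.46, adjusted p = 0.626), and Scarb1 (0.58) and Nr1h2 (-0.62) came next.

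Among the LXR and efflux genes 7 of 10 were positive with microbeads in wild type, with a median log2 fold change of 0.53 beside -0.01 over all genes, and none was called. Plin2 was at a mean of 14.0 CPM in the 4 sham libraries (SD 4.47) and of 40.0 CPM in the 3 microbead libraries (SD 31.8), which is 1.53 on the log2 scale (SE 0.46, adjusted p = 0.33). The efflux pump gene Abca1 averaged 39.7 ± 14.3 and 77.0 ± 31.3 CPM (0.99, SE 0.38, adjusted p = 0.517). In Apoe-/- the list had 6 of 10 positive, with a median of 0.22.

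Of the receptors, 9 of 12 were tested. In Apoe-/- the sorting receptor gene Sorl1 had a log2 fold change of 1.22 with microbeads (adjusted p = 0.70), and Npc1, of the list of carriers, one of 0.58 (adjusted p = 0.711). Of the other apolipoproteins and lipid carriers 2 of 14 were tested, Npc1 and Npc2, and 0 of the apolipoprotein genes in that list had enough reads for a test.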

How the data were processed

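RNA of sorted retinal microglia was measured in 15 bulk libraries. The authors deposited, per the file headers, Salmon transcript tables with estimated counts and TPM, and a gene TPM table for the series. The submitters' processing notes list Salmon 1.4.0, R 4.0.3, DESeq2 1.30.1 and build mm10; the annotation, library type and read filters are not given in the sources. Effective lengths deposited by the authors were not used.

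GENCODE M21 identifiers gave a gene for 116023 of 116945 transcripts. Unassigned transcripts held 0.217 to 0.354% of reads and were left out. The estimated counts of a gene's transcripts were added up and rounded. TPM summed in this way matched the deposited gene TPM for all 9 genes at a relative tolerance of 0.001, and in 99.73% of values over 34317 genes.

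The test was edgeR 4.0.16 under R 4.3.3 (quasi-likelihood F-test, TMM, filterByExpr) in a single model of 15 libraries and 4 groups, with 6 contrasts, two-sided, adjusted by Benjamini-Hochberg over 6521 genes at 0.05. The biological coefficient of variation was 34.4%. CPM use TMM-scaled sizes. All libraries of a group differed by more than sampling noise (chi-square per degree of freedom at least 2.21). Alternatives were DESeq2 1.42.0, RLE, no or other scaling, 2 other filters, limma 3.58.1 on log2(TPM + 1) and log2(TPM + 0.1), fits of the compared groups only, a replicate block and leaving out each library.

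The genes and lists were chosen with earlier results of these data known. All members were named. Of the pathway lists and the 1 Mb window, called genes and the 3 with the smallest p in a comparison were named, and of genes like Apoe the 5 closest. Some genes that this rule names are not reported here. Same-numbered retinas of different groups did not deviate together (r from -0.17 to 0.22 over 21 pairs, 3 of them over 0.1).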

Additional observations from a re-analysis of the deposited data

Results flagged for a closer look

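Levels per library were checked for a sample far from the rest of its group, in 24 groups of 4 libraries by the gap to the nearest library over the range (Dixon's ratio). Chance marks about 1 in 20 such groups when values are continuous, and 6 were marked. A group with reads in only 1 library is always marked, so that rate does not hold for genes near 0 reads. For Apoc1 these were wild-type sham library 3 (1.199 CPM), Apoe-/- sham library 4 (2.61 CPM) and Apoe-/- microbead library 2 (21.9 CPM), which hold 1, 1 and 8 reads while most others of their groups hold 0. For Apoc2 it was Apoe-/- microbead library 1 (2.07 CPM), with a single read. Tomm40 was high in Apoe-/- sham library 3 (26.1 CPM) and Nectin2 was low in Apoe-/- sham library 1 (14.3 CPM), each beside 3 libraries that lay close together.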

How the results depend on the processing

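The fall of Apoe in Apoe-/- retinas kept its call under all alternatives run. Its rise with microbeads in wild type was 3.44 by limma on log2(TPM + 0.1) (adjusted p = 0.0988), where the median of all genes was 0.74. The rise ran from 2.40 to 3.09 when single libraries were left out, and lost its call without wild-type sham library 1 or wild-type microbead library 2. Whether the replicate numbers pair the retinas is not given in the labels. With the replicate number as a block the rise was 2.79 (adjusted p = 0.0265), and 0 neighbours, 0 genes within 1 Mb and 0 pathway genes were called, as without the block. Over all genes the block gave 1, 1 and 7 calls in the genotype comparisons in sham and microbead retinas and in the wild-type response, against 1, 3 and 13 without it, and 2 of 15 libraries correlated best with their own number.

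The count of called neighbours moved from 0 to 1 in the microbead genotype comparison by limma on log2(TPM + 1), where 195 of 6470 genes were called. Over both injections it moved to 2 of 5 without scaling factors, 1 of 8 with no filter and 2 of 5 by limma on log2(TPM + 1). Over all genes these fits called 110 of 6521, 175 of 28112 and 737 of 6470. The count within 1 Mb moved to 1 in the first case and to 2, 1 and 3 in the others, of 13 each. Pathway genes over both injections moved to 1 of 21 without scaling factors and 5 of 21 by limma on log2(TPM + 1). Clptm1 in microbead retinas was then called (-1.54, adjusted p = 0.0413). The median of all genes, -0.01 (sham), 0.01 (microbead) and -0.01 (both) as reported, stood at -0.39, -0.58 and -0.50 without scaling factors, at -0.30, -0.73 and -0.52 on log2(TPM + 1), and at 0.11 over both with no filter. Why the calls moved was not tested.

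Signs turned for some differences, none of them called. Without scaling factors Nectin2 was -0.22 (microbead genotype) and -0.020 (both), and with microbeads in Apoe-/- Apoc4 was 0.16, Nectin2 0.11 and Clptm1 0.033. With no filter Apoc4 was 0.078 there. The medians of all genes in that response were 0.23 without scaling factors and 0 with no filter. On log2(TPM + 1) and log2(TPM + 0.1) Nectin2 was -0.44 and -0.59 (microbead genotype) and -0.11 and -0.11 (both), and Apoc4 was 0.69 and 0.94 in the wild-type response. The medians of all genes on these scales were -0.73 and -0.94 (microbead genotype), -0.52 and -0.71 (both) and 0.59 and 0.74 (wild-type response). In the Apoe-/- response these scales gave 0.38 and 0.46 for Apoc4, 0.16 and 0.27 for Tomm40 and 0.038 and 0.026 for Nectin2, beside medians of 0.18 and 0.26. In the difference of responses these scales gave -0.30 and -0.48 for Apoc4 and -0.28 and -0.079 for Relb, beside medians of -0.43 and -0.49. Leaving out single libraries gave ranges that crossed 0 for Tomm40 (-0.56 to 0.13, microbead genotype), Nectin2 (-0.13 to 0.34, wild-type response), and, in the Apoe-/- response, Apoc4 (-0.32 to 0.21), Tomm40 (-0.44 to 0.025), Nectin2 (-0.45 to 0.039) and Clptm1 (-0.43 to 0.35). The difference of responses ran from -0.016 to 0.69 for Tomm40 and from -0.72 to 0.057 for Clptm1. The Apoe-209 share differed by -4.19 points on TPM and by -9.08 to -3.10 without single libraries. Fits of the compared groups only give no value for comparisons over all 4 groups, and DESeq2 gave no adjusted p for some low genes. Of the values for single neighbours and for the Apoe difference of responses, 726 of 766 kept their sign and side of the threshold. Depth limits the neighbours to at most 38.1 reads in a library.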
